A study of Mus musculus with 6 samples.

Results

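The pore-forming and auxiliary subunits of potassium, sodium and calcium channels were examined in neurospheres, floating clusters of neural precursor cells, in which the microRNA miR-335 was or was not blocked. Members were the gene probes of the array whose single annotated symbol belongs to the Kcn, Scn, Cacn or Hcn families, with Kcnj10 left out. They comprised 160 probes for 114 genes among 34967 gene probes, and 33 of the genes were read by several probes. The rule reads gene names and no measured value, but earlier results of these data were known when it was written. A probe of Kcna6, number 17013, had no value on any array, so 159 probes were tested, and 155 of them had a value on all 6 arrays.

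All cultures came from the dorsal telencephalon of C57BL/6 mouse fetuses at embryonic day 12.5 and grew without serum, with the mitogens EGF (20 ng/ml) and bFGF (20 ng/ml), LIF (0.15 ng/ml), heparin and progesterone (20 nM). The control group, 3 samples, received a nonsense oligonucleotide with 2'-O-methyl chemistry directed at EGFP. The anti-miR-335 group, 3 samples, received a 2'-O-methyl oligonucleotide against miR-335, and the labels give the duration as 24 without a unit. RNA was read on 6 single-colour arrays. What distinguishes the replicates, beyond being independent, is not given in the sources used here, and p-values cover only the variation among these 6 samples, which may be technical. No microRNA was measured among the values used here, and the loss of miR-335 itself was not checked. These are bulk RNA samples, in which fewer cells of a type and less RNA per cell cannot be told apart.

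Voltage-gated channels open when the membrane potential changes and carry the currents of the action potential: sodium channels its rise, potassium channels its fall, and calcium channels the entry of calcium that triggers secretion and gene expression. Inward rectifier and two-pore potassium channels set the resting potential, and auxiliary subunits alter the gating and surface delivery of the pores they join. Neural precursors carry mostly resting potassium conductances, while the voltage-gated sodium currents appear as neurons mature.

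The blocked microRNA is shown first because it defines the treatment. Both mature arms are given 5′ to 3′ with the seed, bases 2 to 8, in capitals. They lie on the plus strand at chr6:30741314-30741336 and chr6:30741354-30741375 (RefSeq, GRCm38.p6).
miR-335-5p: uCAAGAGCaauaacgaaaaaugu
miR-335-3p: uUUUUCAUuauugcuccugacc

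Promoters follow for Kcnd2 and Kcnip3, whose protein products join in the Kv4 channel complex, and for Kcnma1, because these are the 3 member genes with the smallest p-values. Each runs from 250 bases before to 50 bases after the annotated start (RefSeq, GRCm38.p6), 5′ to 3′ along the gene's strand, and capitals mark the GC box GGGCGG on either strand. Kcnd2 lies at chr6:21215096-21215395 on the plus strand, Kcnip3 at chr2:127522045-127522344 on the minus strand, and Kcnma1 at chr14:24004156-24004455 on the minus strand.
Kcnd2: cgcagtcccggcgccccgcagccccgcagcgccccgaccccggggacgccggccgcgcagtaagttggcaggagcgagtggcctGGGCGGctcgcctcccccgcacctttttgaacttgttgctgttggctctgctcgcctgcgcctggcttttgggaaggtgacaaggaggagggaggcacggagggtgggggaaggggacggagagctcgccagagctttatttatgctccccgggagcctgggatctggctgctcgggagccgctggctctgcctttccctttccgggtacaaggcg
Kcnip3: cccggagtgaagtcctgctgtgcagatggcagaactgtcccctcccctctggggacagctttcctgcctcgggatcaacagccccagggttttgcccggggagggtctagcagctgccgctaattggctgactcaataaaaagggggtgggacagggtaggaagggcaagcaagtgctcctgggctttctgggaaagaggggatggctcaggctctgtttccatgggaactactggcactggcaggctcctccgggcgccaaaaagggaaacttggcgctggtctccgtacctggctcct
Kcnma1: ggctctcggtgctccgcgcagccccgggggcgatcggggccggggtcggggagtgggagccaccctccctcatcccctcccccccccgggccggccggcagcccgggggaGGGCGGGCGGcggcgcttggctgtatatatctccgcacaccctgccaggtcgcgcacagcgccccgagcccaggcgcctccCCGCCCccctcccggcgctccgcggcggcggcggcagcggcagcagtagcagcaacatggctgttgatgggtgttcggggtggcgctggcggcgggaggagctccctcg

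The Kcnd2 promoter held 1 GC box, the Kcnip3 promoter 0 and the Kcnma1 promoter 3. Promoters were matched for 88 of the 114 genes. A GC box was present in 44 of the 88 (all motifs searched on both strands) and in 35.9% of all 27025 promoters of this length in the table. The TATA box TATAAA was present in 4.55% of the channel promoters against 14.2% of all promoters. The cyclic AMP response element TGACGTCA was in 0 of the 88 and in 1.88% of all. The left part of the RE1 element, the site of the repressor REST, TTCAGCACC, was in 1 of the 88 and in 0.359% of all. The median number of CpG dinucleotides was 10 in the channel promoters and 7 in all promoters. It was 10 in the 39 promoters of channel genes with a probe above background on all 6 arrays. It was 9 in the 28 whose best probe was above background on 1 to 5 arrays, and 19 in the 21 with no probe above background. These matches describe letters in the window, not sites in use.

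An intensity of 1 is the median of its array, and tests and differences are for 1 probe at a time; sums over probes are given for marker lists alone. The background limit of an array was the median of its negative control spots plus 3 scaled median absolute deviations, which came to 0.492 to 0.692. Between 59.9% and 67.3% of all gene probes exceeded it, the highest share on anti-miR-335 replicate 3, which also had the lowest limit. Positive control spots were dimmest on control replicate 1 (median 3.49; 3.89 to 5.19 elsewhere). With 3 arrays per group, the number of arrays limits the precision.

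Probes of a broad set of channels were above background in the neurospheres, mostly at low intensity. Probe sequences were not examined, so a reading need not come from the named transcript alone. Of the 155 probes with 6 values, 59 (38.1%) were above background on all 6 arrays, against 52.2% of all gene probes, and 50 (32.3%) on none, against 26.4%. Among the 114 genes, 49 had a probe above background on all 6 arrays, 38 on 1 to 5 arrays and 27 on none. The share of channel probes above background was 46.5%, 51.9% and 48.4% in controls 1 to 3 and 45.3%, 53.8% and 57.9% in anti-miR-335 samples 1 to 3. Both replicates 1 had the lowest share of their group, and the groups overlapped.

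**Figure D1:**
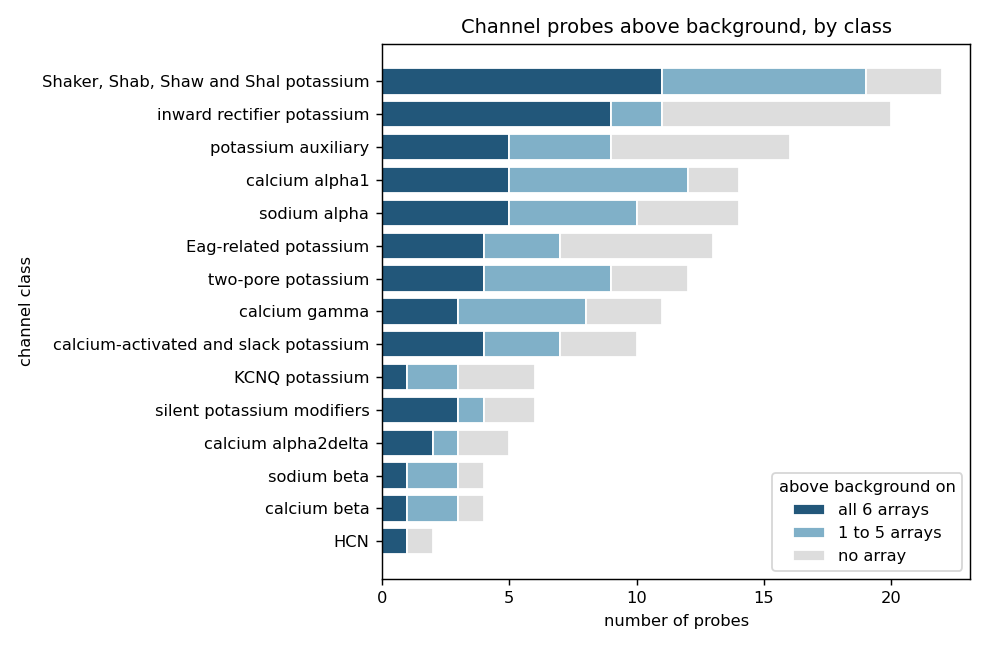
Number of channel probes (x axis) in each channel class (y axis) that were above background on all 6 arrays, on 1 to 5 arrays or on no array, for the 159 probes with a value. The inward rectifiers have 9 probes above background on all 6 arrays and 9 on none, while the largest class, the Shaker to Shal genes, has 11 and 3.

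The class with the most detected probes was that of the Shaker, Shab, Shaw and Shal genes, the delayed rectifier and A-type voltage-gated potassium channels. Kcna2, Kcnc1, Kcnc4, Kcnd2 and Kcnd3 had a probe above background on all 6 arrays, and only Kcna4 of this class had none on any. Among the inward rectifiers, Kcnj2, Kcnj3, Kcnj5, Kcnj6, Kcnj12, Kcnj14 and Kcnj16 were above background on all 6 arrays. Kcnj3, Kcnj5 and Kcnj6 encode the G protein-gated channels that slow firing, and Kcnj16 a partner of other rectifiers in glia. Kcnj1, Kcnj4, Kcnj8, Kcnj9 and Kcnj15 were above background on none. Of the 11 two-pore genes, which give leak currents, Kcnk2, Kcnk7, Kcnk13 and Kcnk18 were above background on all 6 arrays. Kcnk2, the stretch-sensitive TREK-1, read 13.1 ± 1.36 in controls and 13.8 ± 1.21 in anti-miR-335 samples (SD, n = 3 each).

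The calcium-activated potassium channels were represented by all 4 Kcnn genes, the small and intermediate conductance channels, each above background on all 6 arrays. Kcnn3 read 8.75 ± 1.43 in controls and 9.37 ± 1.01 in anti-miR-335 samples. Of the Eag-related genes, Kcnh1, Kcnh3 and Kcnh7 were above background on all 6 arrays, and Kcnh2, Kcnh4, Kcnh6 and Kcnh8 on none. Kcnq3, a subunit of the M current that damps repetitive firing, was above background throughout, whereas Kcnq1 was on no array. Hcn3 of the pacemaker channels was above background on all 6 arrays and Hcn2 on none. Of the silent subunits, which alter Shab channels without forming pores of their own, Kcng3, Kcns3 and Kcnv1 were above background on all 6 arrays.

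Of 8 sodium channel pore genes, 5 had a probe above background on all 6 arrays: Scn1a, Scn3a, Scn8a, Scn10a and Scn11a. Scn3a, a sodium channel of the embryonic brain, read 1.65 ± 0.212 in controls and 1.76 ± 0.125 in anti-miR-335 samples. Scn2a was on no array above the limit. Scn10a and Scn11a, neighbouring genes known from peripheral sensory neurons, were both above background on every array. Scn10a read 9.94, 7.99 and 7.95 in controls and 7.70, 7.85 and 6.89 in anti-miR-335 samples. Scn11a read 21.3, 16.4 and 16.4 in controls and 19.1, 15.6 and 16.7 in anti-miR-335 samples. For Scn10a every control was above every anti-miR-335 sample, while for Scn11a the groups overlapped. Among 16 pairs of adjacent channel genes, Scn3a and Scn2a, Kcnj5 and Kcnj1, Kcnj6 and Kcnj15, and Scn2b and Scn4b each joined a gene above background on all 6 arrays to one above it on none.

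Among calcium channels, Cacna1b (N-type), Cacna1c and Cacna1f (L-type) and Cacna1h (T-type) were above background on all 6 arrays, and Cacna1g and Cacna1s on none. Their auxiliary genes above background on all 6 arrays were Cacna2d2 and Cacna2d3, Cacnb4, and Cacng4, Cacng5 and Cacng8. Several Cacng genes are better known for escorting AMPA-type glutamate receptors than for calcium channels. Cacna1h read 5.66 ± 1.18 in controls and 5.26 ± 0.270 in anti-miR-335 samples.

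Detection depended on the probe. Of the 33 genes with several probes, 6 had a probe above background on all 6 arrays and another on none, 4 had every probe above on all 6 arrays, and 3 had none above on any. Probes that the scanner output identifies by a RefSeq message were above background on all 6 arrays for 35 of 85. The remaining probes were above it on all 6 arrays for 24 of 70.

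The comparison of anti-miR-335 with control samples asks which channel RNAs differ when miR-335 is blocked. No channel probe passed: 0 of 159 had an adjusted p under 0.05 in limma, where 0% of all 34847 tested probes did. The smallest adjusted p among the channel probes was 0.374. At an unadjusted p under 0.05 there were 13 channel probes, 7 higher and 6 lower with anti-miR-335, against 9.07% of all probes. Of the 13, 5 were above background on no array. Group values did not overlap for 25 of 155 channel probes (16.1%), against 14.7% of all probes. They were higher with anti-miR-335 in 13, against 7.46% of all probes, and lower in 12, against 7.25%. Both shares are near the background. Of the 25, 17 were among the 74 channel probes with 6 values and above background on at least 3 arrays (23.0%), against 17.3% of all such probes. Probes such as Kcnj13 and Cacna1a passed that filter only through the group in which they were high, so nothing is read from the difference.

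The median log2 difference, anti-miR-335 minus control, was 0.02 over the channel probes and 0.01 over all probes, with 84 channel probes higher and 75 lower. Among the 78 channel probes above background on at least 3 arrays it was 0.05, with 45 higher (57.7%) and 33 lower, and over all such probes it was 0.03, with 55.7% higher. The median size of the difference, without its sign, was 0.177 in those 78 and 0.157 in all probes above background on at least 3 arrays. Of the channel probes, 44.7% had a mean intensity of at most 0.5 of the array median, against 33.6% of all probes.

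**Figure D2:**
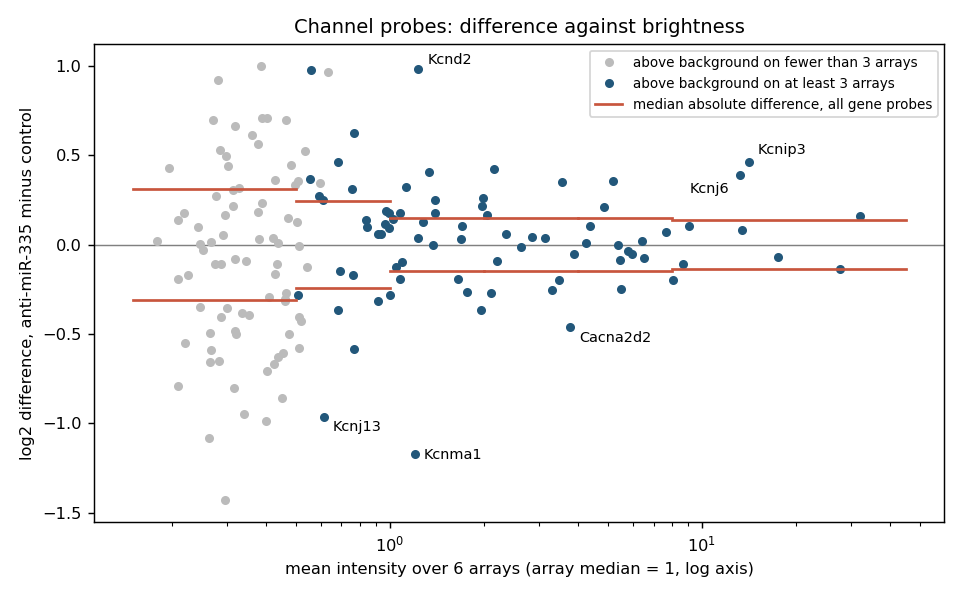
Log2 difference (anti-miR-335 minus control, y axis) of each channel probe against its mean intensity over the 6 arrays (x axis, log scale, array median = 1), with probes above background on fewer than 3 arrays in grey. Lines give the median absolute difference of all gene probes in each range of intensity; it is 0.312 at intensities up to 0.5 and 0.136 above 8, and Kcnd2 and Kcnma1 have the highest and the lowest difference among the probes above background on at least 3 arrays.

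Leaving out 1 array changed the count. Without control replicate 1, 4 channel probes had an adjusted p under 0.05 in limma, where 3.17% of all probes did. They were Cacna2d2, Kcnip3, probe 150079 of Kcnj6 and probe 253034 of Kcna2. Without replicate 1 of both groups there were 6, where 4.57% of all probes did, with Kcnd2 and the dim Kcnu1 added. Among the 74 channel probes above background on at least 3 arrays with 6 values, control replicate 1 was the highest of the 3 controls in 34 (45.9%), and over all such probes in 51.5%. Of the 44 channel probes described one by one, 10 changed sign on leaving out a single array and 18 kept their sign but moved by over 1.5 times. The other 16 moved by less, among them those of Kcnd2, Kcnip3, Kcnma1, Kcnj13, Kcnj3, Cacng4, Hcn3 and Kcnk3. The part of this array in the results was not tested beyond these values.

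A pair of subunits of a single potassium channel complex were higher with anti-miR-335 in all 3 samples, though neither passed the test. Kcnd2 encodes Kv4.2, the pore of the A-type current that delays firing and limits the spread of action potentials into dendrites. Its intensity was 0.758, 0.900 and 0.794 in controls and 1.21, 1.68 and 2.06 in anti-miR-335 samples. Every anti-miR-335 sample was above every control, and all 6 arrays were above background. The log2 difference was 0.98 ± 0.23 (SE; adjusted p = 0.384, limma). Kcnip3 encodes KChIP3, also called calsenilin or DREAM, a calcium-binding subunit of Kv4 channels that also binds DNA. It read 12.2, 11.1 and 12.4 in controls and 14.7, 17.0 and 17.6 in anti-miR-335 samples. Again the groups did not overlap, with anti-miR-335 replicate 1 the lowest of its group for both genes. The log2 difference was 0.46 ± 0.11 (adjusted p = 0.384, limma). Without control replicate 1 the Kcnip3 difference was 0.48 (adjusted p = 0.0399, limma), and without replicate 1 of both groups Kcnd2 differed by 1.14 (adjusted p = 0.0348, limma). Over the alternatives the adjusted p ran from 0.0348 to 0.997 for Kcnd2 and from 0.0285 to 0.997 for Kcnip3, while the differences stayed between 0.69 and 1.19 and between 0.39 and 0.56.

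Grouping these genes as a complex was done after their values were seen. Dpp6, no channel gene itself but the transmembrane partner that speeds Kv4 gating, was read by a pair of probes. Probe 353007 read 0.353, 0.477 and 0.602 in controls, all below background, and 0.839, 1.49 and 1.33 in anti-miR-335 samples, all above it. That is at least 1.84-fold higher (log2 difference 1.35 ± 0.30, adjusted p = 0.374, limma), a bound in which each control array enters with whichever is higher, the probe's reading or the dimmest reading over the limit. The other probe, 243056, read 1.45, 1.47 and 1.67 in controls and 1.68, 1.71 and 1.83 in anti-miR-335 samples. Its groups did not overlap either, but the difference was 0.19 ± 0.15. Dpp10, the related Kv4 partner, overlapped between groups on all 3 of its probes (0.10 ± 0.20 on probe 50022, above background on all 6 arrays, 0.06 ± 0.25 on 304032 and 0.42 ± 0.60 on 405068). The remaining Kv4 pore and KChIP genes overlapped between groups. Kcnd3, the Kv4.3 pore, read 4.24, 2.98 and 2.30 in controls and 3.29, 4.94 and 3.69 in anti-miR-335 samples on probe 8043, and its second probe was above background on no array. Kcnip1, another KChIP, read 7.41, 7.22 and 7.81 in controls and 7.54, 8.01 and 7.97 in anti-miR-335 samples. Kcnip1 thus overlapped between the groups, with a difference of 0.07 ± 0.10. Kcnd1, Kcnip2 and Kcnip4 were above background on some arrays only.

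**Figure D3:**
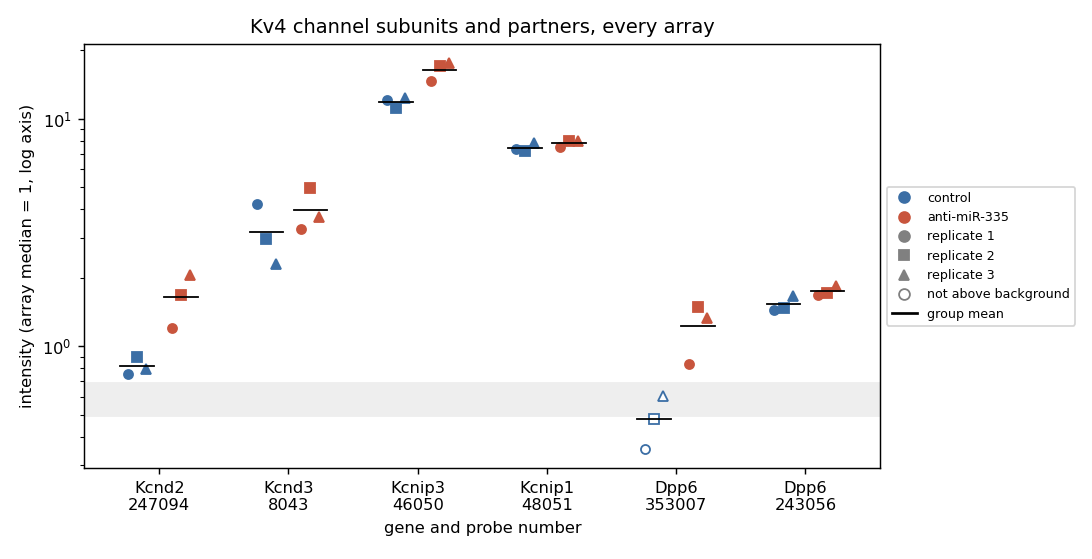
Intensity on each array (y axis, log scale, array median = 1) of the Kv4 pore genes Kcnd2 and Kcnd3, the KChIP genes Kcnip3 and Kcnip1, and the partner gene Dpp6, by probe (x axis). Shapes give the replicate, open symbols are not above background, the grey band spans the background limits of 0.492 to 0.692 and black lines are group means; for Kcnd2, Kcnip3 and both Dpp6 probes every anti-miR-335 sample is above every control.

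Some cell type markers also separated the groups, though none passed the test with all 6 arrays (limma). Those lower with anti-miR-335, Ptprc and Pecam1, were below background on every array. Over all gene probes, 14.7% did not overlap between groups. Without control replicate 1, adjusted p (limma) was under 0.05 for Pdgfra probe 136011 (0.0083), Aqp4 probe 110031 (0.016) and Hes5 (0.021). The same held for Dcx probe 9014 (0.025), Pax6 (0.038) and Slc1a3 (0.038). All of these were higher with anti-miR-335, and no other marker probe passed, beside 3.17% of all probes. The sums below add probes of very different brightness, so the brightest probes set them. All 6 genes of the neural precursor list (Nes, Sox2, Pax6, Fabp7, Vim and Hes5) were above background on every array, and their summed intensity was 241 to 244 in controls and 258 to 291 in anti-miR-335 samples. Of these, Fabp7 (90.1 ± 8.62 in controls, 110 ± 2.59 in anti-miR-335 samples) and Hes5 (2.60 ± 0.434 and 4.44 ± 0.0680) did not overlap between groups, and the other 4 did. Of the neuronal markers, 5 of 7 were above background on all 6 arrays, with sums of 9.83 to 13.4 and 12.4 to 16.6, and Stmn2 was above it on none. The sums overlapped, but Dcx, of migrating young neurons, read 2.42 ± 0.144 in controls and 4.99 ± 1.18 in anti-miR-335 samples on probe 9014, without overlap (log2 difference 1.02 ± 0.18, adjusted p = 0.333, limma). Its other probe, above background on 1 array, overlapped (-0.27 ± 0.50). Over the neuronal list 7 probes were higher and 4 lower, the lower ones including Syt1 (-0.11 ± 0.21) and Tubb3 probe 239004 (-0.25 ± 0.41). The 5 astrocyte markers were all above background on all 6 arrays, with sums of 145 to 180 and 160 to 179, which overlapped. Of their probes, 6 were higher and 2 lower, namely S100b (-0.10 ± 0.14) and Slc1a2 probe 52107 (-0.30 ± 0.44). Both probes of Aqp4, the astrocyte water channel, were without overlap higher with anti-miR-335: 10.5 ± 0.908 against 16.9 ± 1.67 on probe 110031 (0.69 ± 0.11, adjusted p = 0.333, limma) and 5.19 ± 0.0860 against 7.68 ± 1.68 on probe 344094. Of 5 measured oligodendrocyte lineage markers, 3 were above background on all 6 arrays, and the sums were 15.6 to 16.7 in controls and 22.1 to 26.2 in anti-miR-335 samples. That sum was set by Pdgfra, at 7.95 ± 1.46 in controls and 15.9 ± 2.39 in anti-miR-335 samples on probe 136011 (1.01 ± 0.15, adjusted p = 0.333, limma). Sox10 (2.55 ± 0.301 and 3.29 ± 0.139) did not overlap either, while Cspg4 (-0.24 ± 0.16), Olig2 (-0.29 ± 0.54) and Mbp (-0.14 ± 0.26) had negative differences with overlap. The other Pdgfra probe, 240016, above background on 1 array, overlapped (0.29 ± 0.41). No marker of microglia (4 measured), endothelium (4) or mesenchyme and pericytes (5) was above background on all 6 arrays. Itgam, Ptprc, Cdh5, Pecam1, Acta2, Col1a1, Col3a1 and Lum were above it on none. The microglial sums, 1.32 to 1.88 in controls and 1.94 to 2.25 in anti-miR-335 samples, were mostly of readings below background, and only Cx3cr1 (0.724 ± 0.122 and 1.09 ± 0.271) was above it on at least 3 arrays. Cx3cr1 was higher with anti-miR-335 without overlap, and Ptprc, below background throughout, was lower without overlap (-0.83 ± 0.35). The endothelial sums were 1.74 to 1.81 and 1.28 to 2.33, and the mesenchymal ones 1.51 to 1.90 and 1.61 to 2.08. Pecam1, below background throughout, was lower with anti-miR-335 without overlap (-0.72 ± 0.41). Tek, above background on the 3 anti-miR-335 arrays alone, was higher without overlap (0.40 ± 0.25). None of the 3 erythroid markers had a probe named for it alone. The part of these cell types in the channel differences was not tested.

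Among the 78 channel probes above background on at least 3 arrays, the most negative difference was that of a probe for Kcnma1, the pore of the large conductance BK channel, which opens with both voltage and calcium. Probe 80019 read 1.67, 1.57 and 1.69 in controls and 0.919, 0.885 and 0.476 in anti-miR-335 samples. All anti-miR-335 samples were below all controls, and replicate 3 was below its background limit. The log2 difference was -1.17 ± 0.26 (adjusted p = 0.374, limma), and between -1.35 and -0.79 over the alternatives. It passed under array weights alone (-1.21, adjusted p = 0.0432, limma), and its adjusted p ran up to 0.997. The other Kcnma1 probes were above background on no array, so a single probe carries this difference. Of the BK auxiliary genes, Kcnmb1 read 0.924 ± 0.00360 in controls and 1.01 ± 0.122 in anti-miR-335 samples (0.12 ± 0.20). The brighter Kcnmb4, at 5.85 ± 0.289 in controls and without a value on anti-miR-335 replicate 2, differed by -0.04 ± 0.13. Kcnmb2, above background on 1 array, differed by -0.61 ± 0.40. Kcnt1, the sodium-activated Slack channel, read 0.791, 0.585 and 0.451 in controls and 0.881, 0.770 and 1.12 in anti-miR-335 samples. Its groups overlapped by 1 control, and the difference was 0.62 ± 0.28.

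Kcnj13 encodes Kir7.1, an inward rectifier of epithelia such as the choroid plexus. It read 0.703, 0.962 and 0.778 in controls and 0.344, 0.429 and 0.479 in anti-miR-335 samples. All controls were above background and no anti-miR-335 sample was. Controls were at least 1.40-fold higher (log2 difference -0.96 ± 0.27, adjusted p = 0.415, limma). The opposite pattern was seen on probe 294014 of Cacna1a, the P/Q-type calcium channel pore, with 0.490, 0.577 and 0.144 in controls, none above background, and 0.855, 0.704 and 0.584 in anti-miR-335 samples, all above it. That is at least 1.10-fold higher, and the lowest anti-miR-335 value was close to the highest control. The other Cacna1a probe, 72087, overlapped, at 0.336, 0.614 and 0.399 in controls and 0.342, 0.595 and 0.550 in anti-miR-335 samples (0.15 ± 0.35), with 2 anti-miR-335 arrays above background. Cacna1d, an L-type pore, read 0.649, 0.724 and 0.379 in controls and 0.776, 0.821 and 0.732 in anti-miR-335 samples. Only 1 control array was above the limit there, and the groups did not overlap.

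**Figure D4:**
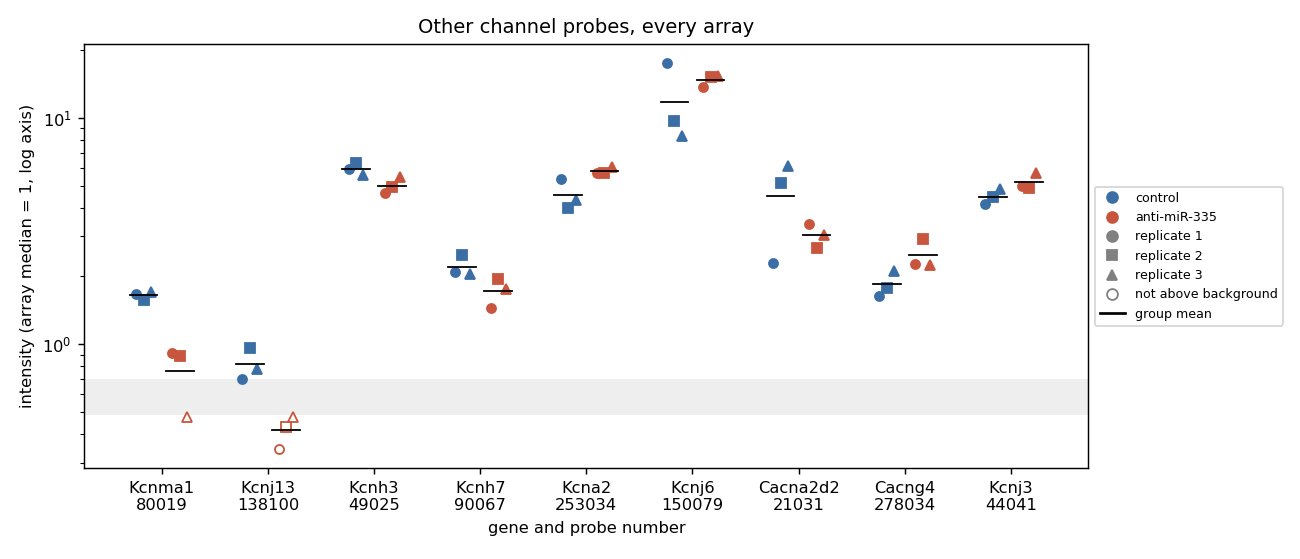
Intensity on each array (y axis, log scale, array median = 1) of 9 further channel probes (x axis), with shapes for the replicates, open symbols for values not above background, a grey band for the background limits and black lines for group means. Kcnma1 and Kcnj13 are lower in all 3 anti-miR-335 samples, while control replicate 1 stands apart from the other 2 controls for Kcnj6 and Cacna2d2.

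The G protein-gated rectifiers gave differing results by probe. Kcnj3 read 4.17, 4.46 and 4.85 in controls and 5.01, 4.91 and 5.70 in anti-miR-335 samples, without overlap, and differed by 0.21 ± 0.12. Kcnj6 on probe 150079 read 17.4, 9.69 and 8.30 in controls and 13.7, 15.1 and 15.3 in anti-miR-335 samples. Control replicate 1 was the highest of all 6 arrays here, and the other controls the lowest. The difference was 0.39 ± 0.22, and without control replicate 1 it was 0.71 (adjusted p = 0.0184, limma, the lowest over the alternatives, of which the highest was 0.997). Kcnj6 on probe 308015 read 32.7, 24.9 and 29.4 in controls and 26.4, 26.8 and 25.5 in anti-miR-335 samples, a difference of -0.14 ± 0.12, and of -0.045 without control replicate 1. Kcnj5 overlapped on probe 350079, at 4.22 ± 0.214 in controls and 4.28 ± 0.682 in anti-miR-335 samples (0.01 ± 0.14), and its dim probes differed by 0.18 ± 0.44 (150065) and -0.95 ± 0.35 (215043). Outside the G protein-gated genes, Kcnj16 on probe 317030 read 39.0, 24.9 and 27.6 in controls and 33.5, 35.6 and 31.4 in anti-miR-335 samples, and control replicate 1 was again the highest of all.

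In the Eag-related class, all anti-miR-335 samples were below all controls for 1 probe each of Kcnh3 and Kcnh7. Kcnh3, an Elk-type channel of the forebrain, read 5.97, 6.32 and 5.60 in controls and 4.66, 4.95 and 5.46 in anti-miR-335 samples on probe 49025. Kcnh7, an erg-type channel, read 2.08, 2.49 and 2.05 in controls and 1.45, 1.94 and 1.75 in anti-miR-335 samples on probe 90067. Control replicate 2 was the highest of all for both, and the differences were -0.25 ± 0.11 and -0.37 ± 0.17. The groups overlapped on Kcnh3 probe 342071, above background on all 6 arrays, with 1.09, 1.06 and 1.30 in controls and 1.19, 0.932 and 0.913 in anti-miR-335 samples (-0.19 ± 0.20). They also overlapped on the dim probes 149102 of Kcnh3 (-0.11 ± 0.36) and 239107 of Kcnh7 (0.36 ± 0.34). Over the whole class 7 probes were higher and 6 lower, with a median of 0.14, and none of the 13 had an unadjusted p under 0.05 in limma. Hcn3 read 1.92, 1.76 and 1.76 in controls and 2.01, 2.23 and 2.29 in anti-miR-335 samples, higher in every sample, with a difference of 0.26 ± 0.14. The KCNQ probes above background on at least 3 arrays overlapped between groups. Kcnq3 differed by 0.06 ± 0.23, and Kcnq5 by 0.25 ± 0.24 on probe 91105, which had no value on control replicate 1.

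Kcna2, the Kv1.2 channel of axons, was read by 4 probes above background on all 6 arrays, so that its probes can be set side by side. Probe 253034 read 5.39, 4.02 and 4.36 in controls and 5.71, 5.74 and 6.04 in anti-miR-335 samples. Its groups did not overlap, control replicate 1 came nearest to the anti-miR-335 samples, and the difference was 0.36 ± 0.13 (adjusted p = 0.490, limma). Without control replicate 1 it was 0.48 (adjusted p = 0.0340, limma, the lowest over the alternatives, with 0.997 the highest). Probe 131108 read 3.19, 4.08 and 3.56 in controls and 2.66, 3.18 and 3.24 in anti-miR-335 samples, a difference of -0.25 ± 0.14. The remaining probes, 380050 and 62041, differed by 0.05 ± 0.13 and 0.04 ± 0.12. No other Kcna2 probe separated the groups. Kcnc1, the fast-firing channel Kv3.1, behaved likewise: probe 174038 read 0.832, 1.11 and 1.08 in controls and 1.30, 1.21 and 1.24 in anti-miR-335 samples without overlap (0.32 ± 0.19). Its other probes differed by 0.19 ± 0.21 (51050), -0.11 ± 0.21 (7102) and less than 0.01 in size (318092). There were 6 channel genes with several probes above background on at least 3 arrays, and in 4 of these genes the probes had both signs.

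**Figure D5:**
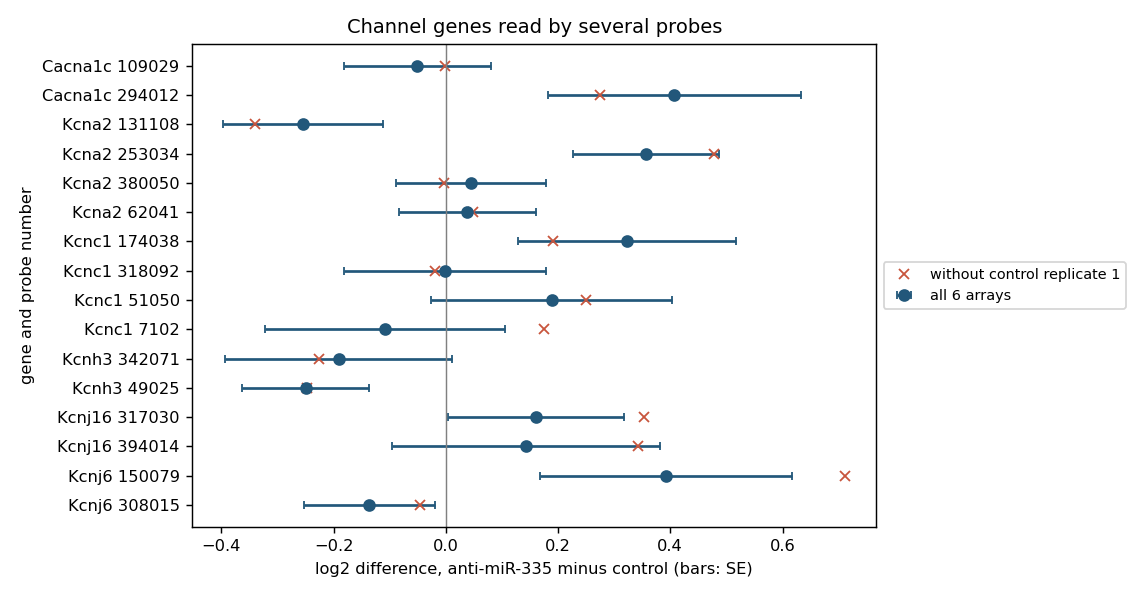
Log2 difference (anti-miR-335 minus control, x axis) for each probe of the 6 channel genes with several probes above background on at least 3 arrays (y axis), with all 6 arrays (circles, bars are SE) and without control replicate 1 (crosses). Probes of Kcna2, Kcnc1, Cacna1c and Kcnj6 lie on both sides of 0, and Kcnj6 probe 150079 moves from 0.39 to 0.71 without that array.

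Among the calcium channel subunits, Cacng4, an auxiliary subunit of AMPA receptors, read 1.63, 1.77 and 2.11 in controls and 2.26, 2.91 and 2.23 in anti-miR-335 samples. All anti-miR-335 samples were above all controls, by 0.42 ± 0.17. Cacna2d2, an alpha2delta subunit that carries calcium channels to the membrane, read 2.29, 5.14 and 6.15 in controls and 3.41, 2.67 and 3.04 in anti-miR-335 samples. Control replicate 1 was the lowest of all 6 arrays and the other controls the highest. The difference was -0.46 ± 0.30 with all arrays and -0.90 without control replicate 1 (adjusted p = 0.0193, limma, the lowest over the alternatives, with 0.997 the highest). Cacna1c, the L-type pore, differed by 0.41 ± 0.22 on probe 294012 and -0.05 ± 0.13 on probe 109029. Cacnb1 read 1.01, 0.740 and 0.954 in controls and 0.358, 0.891 and 0.664 in anti-miR-335 samples, with overlap (-0.58 ± 0.33, and -0.21 without anti-miR-335 replicate 1). Cacnb4 differed by 0.12 ± 0.17, Cacna2d3 by 0.18 ± 0.24, Cacng8 by -0.19 ± 0.16 and Cacna1b by -0.20 ± 0.13. The groups of these last 4 overlapped.

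Sodium channel pore probes above background on at least 3 arrays differed by -0.28 to 0.18. Scn10a differed by -0.20 ± 0.12 and Scn11a by -0.07 ± 0.13, and without control replicate 1 these were -0.094 and 0.058. Scn9a, which had no value on control replicate 1, differed by -0.28 ± 0.24, and Scn2b, a beta subunit, by -0.09 ± 0.16. None of the 14 pore probes and 4 beta subunit probes had an unadjusted p under 0.05 in limma. The auxiliary potassium subunits Kcnab1 and Kcnab3, cytoplasmic partners of Shaker channels, differed by -0.27 ± 0.15 on probe 10063 and by -0.32 ± 0.21 (adjusted p = 0.629 and 0.679, limma). The Kcnab1 groups overlapped, and its other probes, above background on no array, had positive differences of 0.23 ± 0.33 and 0.50 ± 0.50. Kcnab3 did not overlap between groups, at 1.15, 0.891 and 1.02 in controls and 0.800, 0.808 and 0.840 in anti-miR-335 samples. Among the leak channels, Kcnk3 read 0.737, 0.716 and 0.844 in controls and 0.537, 0.574 and 0.679 in anti-miR-335 samples, a difference of -0.36 ± 0.24 without overlap. Kcnk13 differed by -0.26 ± 0.21 with overlap, and by -0.074 without control replicate 1. The silent subunits Kcng3 (-0.05 ± 0.13) and Kcnv1 (0.09 ± 0.19) overlapped between groups.

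Other genes that move or buffer the same ions were taken from lists chosen by function. Of 84 genes listed, 69 were measured by 103 tested probes. With all arrays 0 passed in limma and 8 had an unadjusted p under 0.05, where 9.07% of all probes did. Without control replicate 1 there was 1 past the threshold, against 3.17% of all probes, and without replicate 1 of both groups there were 5, against 4.57%. Of the probes, 59 were higher and 44 lower, with a median log2 difference of 0.04, where 51.9% of all gene probes were higher. Atp1b1, the beta subunit of the sodium pump, read 6.91, 6.75 and 6.55 in controls and 8.84, 9.37 and 8.10 in anti-miR-335 samples, with no overlap (0.38 ± 0.10). The pumps as a group had 4 probes higher and 4 lower. Calcium pumps and exchangers had 5 higher and 6 lower (Slc8a3, a sodium-calcium exchanger, -0.68 on probe 23106 and -0.08 on 159009). Calcium release and store entry genes had 6 higher and 12 lower (Stim1, the store sensor, 0.30). Chloride channels and transporters had 8 higher and 6 lower. Clcn3 differed by 0.29 on probe 194070, 0.38 on 229017, -0.05 on 264058 and -0.21 on 75086. TRP and other cation channels had 13 higher and 3 lower (Tpcn1, 0.31). Only 6 of these probes were above background on at least 3 arrays, 5 higher and 1 lower, with a median of 0.058. Channel partners and anchors had 14 higher and 10 lower, and the calmodulins 4 and 0 (Calm3, 0.21). REST with its corepressors had 5 higher and 3 lower (Ehmt2, 0.31 on probe 96045 and 0.20 on 107059). Rest itself, the repressor of neuronal channel genes, read 14.0, 9.78 and 8.98 in controls and 10.4, 11.2 and 10.1 in anti-miR-335 samples. Control replicate 1 was the highest for Rest, and the groups overlapped.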

How the data were processed

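RNA from 6 samples, 3 per group, was hybridised to CodeLink mouse arrays. The deposited values are linear intensities, which the authors divided by each array's median, per the labels; CodeLink Expression Analysis, version 4.1.0.29054, is named per the file headers. The 3 control and 3 anti-miR-335 samples were compared as labelled. Scanner output for replicate 1 of each group equalled the deposited intensities row by row, within 0.0001. Genes were named from the platform annotation, and all 160 gene identifiers were found in the RefSeq table (GRCm38.p6). The sequence identifier in the scanner output was among those of the annotation for 136 of the 160 probes (85.0%). Kcnd2 probe 247094 and Kcnc1 probe 7102 were among the others. Control spots were left out of the tests.

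Intensities were raised to a floor at the 5th percentile (0.163) and log2 was taken of the deposited values. Groups were compared two-sided with limma 3.58.1 in R 4.3.3 (lmFit, eBayes with an intensity trend). There was no covariate. The Benjamini-Hochberg adjustment ran over 34847 probes with at least 2 values per group, at a threshold of 0.05. Means and SDs are of linear intensities. The scripts were tested on simulated data.

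Values on every array were given for these channel probes: the 12 of smallest unadjusted p in each direction that were above background on all 3 arrays of a group; the 2 of smallest p per class above background on at least 3 arrays; genes with several such probes; and probes above background on all arrays of 1 group and none of the other. Some of these are given by their difference alone. The members, lists and tests were chosen with earlier results of these data known. Same-numbered arrays of the groups did not deviate together (r = -0.231, 0.0388 and -0.255 over 17843 probes), so no pairing was used. Alternatives were other floors, an offset, quantile normalization, a filter on dim probes, array weights, other trends, a replicate block and left-out arrays. With scanner headers for 1 array per group, no slide or scan batch could be tested.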

Additional observations from a re-analysis of the deposited data

How the results depend on the processing

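The count of 0 channel probes past the threshold was the same under quantile normalization, other floors, an offset of 0.5, a filter on dim probes, other intensity trends and the replicate block, which called 0 of all gene probes and 0 channel probes; array weights called 3 (Kcnd2, Kcnip3 and Kcnma1). For all gene probes quantile normalization gave 1, a robust trend 3 and array weights 474, and for the related ion-handling genes array weights gave 2. Leaving out arrays gave 0 to 1571 calls over all gene probes (1100 without control replicate 1 and 1571 without replicate 1 of both groups), 0 to 6 channel probes and 0 to 5 related probes. The channel median of 0.019 ranged from -0.031 to 0.078 when arrays were left out. Counting probes above background on at least 1 array gave 105 in place of 59. Of 44 named probes, 11 changed sign when arrays were left out: Kcna2 380050 (-0.033 to 0.109) and 62041 (-0.0066 to 0.113), Kcnc1 7102 (-0.310 to 0.175) and 318092 (-0.136 to 0.081), Cacna2d3 (-0.020 to 0.374), Kcng3 (-0.183 to 0.125), Kcnq3 (-0.164 to 0.225), Kcnj16 394014 (-0.073 to 0.343) and 317030 (-0.017 to 0.353), Scn2b (-0.214 to 0.013) and Cacna1c 109029 (-0.175 to 0.093). Array weights reversed Kcnc1 318092 (0.024) and 7102 (0.021), Cacna1c 109029 (0.019) and Kcng3 (0.036), and log2 of the value plus 0.5 reversed Kcnc1 318092 (0.0011). The cause was not tested. Probes near the background limit are the least precise, and 50 of 155 channel probes were above it on no array.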
